A study of Mus musculus with 160 samples.

Results

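The 10 genes described here encode the enzymes that write and remove DNA methylation and the core of Polycomb repressive complex 2 (PRC2): the maintenance methyltransferase gene Dnmt1 and its recruiting partner Uhrf1, the de novo methyltransferase genes Dnmt3a and Dnmt3b, the dioxygenase genes Tet1, Tet2 and Tet3, and the PRC2 genes Ezh2, Eed and Suz12. The rule that chose them gave their names and set no limit on a measured value, but it was written with earlier results of these data known. They are 10 of the 23420 rows of the expression table. All 10 of 10 passed the filter on low values, which asked for more than 1 TPM (a transcript's length-scaled share of a cell's reads) in more than 30 cells and left 9674 genes.

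The cells were mouse cells of C57BL/6 background on the way from pluripotent stem cells to T lineage progenitors, each sequenced on its own, 160 in all. Every cell, in every group, carried a doxycycline-inducible Runx1-p2a-Hoxa9 cassette in the Rosa26 locus. In the study's protocol doxycycline was added before the iHECs were sorted and kept through maturation, so all groups shared this treatment. The labels do not say for a cell whether an embryonic or an induced pluripotent stem cell line was used, and the study's own text names the embryonic line for the progenitors. The first group held 65 induced hemogenic endothelial progenitors (iHECs), sorted as CD31+CD41lowCD45-c-kit+CD201high cells. The other groups were induced hematopoietic progenitor cells (iHPCs), matured from iHECs on the OP9-DL1 feeder line, which presents a Notch ligand, in conditioned medium with doxycycline. There were 21 cells from day 14 (maturation day 3) and 18 cells from day 17 (maturation day 6), both sorted as CD45+ cells free of lineage antigens (among them Ter119, Gr1, F4/80, FcεRIα and the T cell antigens CD2, CD3, CD4 and CD8), and 56 cells from day 21 (maturation day 10), sorted as Ter119-CD45+c-kit+CD127+ cells. Between iHECs and day 14, and between day 17 and day 21, the sorting gate changed together with the day, so gate and time cannot be told apart. No label names the culture, clone or experiment of a cell. Each group was therefore 1 sample, cells were not replicates, no test was possible between groups, and every SD below is a spread between cells.

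DNA methylation in mammals is laid down on CG dinucleotides. DNMT3A and DNMT3B place it anew, whereas DNMT1 copies it to the new strand behind the replication fork, where UHRF1 recognizes hemimethylated DNA and brings DNMT1 in. The TET enzymes oxidize methylcytosine and open a route to its removal. PRC2 methylates histone H3 on lysine 27: EZH2 (or its relative EZH1) is the catalytic subunit, EED reads the mark, and SUZ12 holds the complex together. In blood formation, loss of DNMT3A or TET2 is known to alter stem cell self-renewal, and PRC2 is known to be needed for lymphoid development.

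Libraries differed in complexity between the groups. The median number of genes above 1 TPM per cell was 4926 in iHECs, with a range of 3309 to 7533, against 8200 at day 14, 8101 at day 17 and 6695.5 at day 21. Read depth is unknown, since TPM keeps none. On the scale log2(TPM + 1), used for all means and differences below, the median gene was 0.93 higher at day 14 than in iHECs, 0.28 higher at day 17 than at day 14, and dropped by 0.74 between day 17 and day 21. Differences are therefore given relative to these medians, and a gene is called higher or lower when its relative difference is beyond 1. Most cells carried the markers of their label. All 8 endothelial markers were lower at day 14 than in iHECs (list mean 6.85 to 2.16), and all 6 CD45-positive blood markers were higher (1.36 to 7.17). The summed TPM of 7 stromal markers, which the feeder could have brought, reached at most 48.5 TPM in any cell.

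A few cells went against their label. In 2 day-14 cells and 1 day-17 cell the mean level of the blood markers (1.36 and 3.06, and 1.15) lay below that of the lowest day-21 cell (4.57), and Ptprc, the CD45 gene, stood at 0, 0 and 0.28 TPM. These 3 iHPCs also held more Dnmt3b than the median cell of their day (1421, 694 and 167 TPM) and 7.81 to 10.8 TPM of Tet1. Conversely, 3 of 65 iHECs reached the blood marker level of the lowest day-21 cell (4.91 to 6.35), and 1 of them held 53.9 TPM of Ptprc. What these cells were was not tested. All cells were kept. Values without the 3 iHPCs or the 3 iHECs, a choice made after the values were seen, stand beside some of the results they touch, mostly for the iHPCs. Without either set, 6 of the 10 genes were still higher and 1 lower from iHECs to day 14. The shares of all genes called without these cells are not given here.

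An E2F-type motif stood in the promoter windows of 4 of the 10 genes, shown here because Uhrf1, Dnmt1 and Ezh2 are described below beside the genes of S phase, many of which are known E2F targets. The windows ran from 250 bases before to 50 bases after a RefSeq transcript start (GRCm38.p6), and all 10 genes had one. The motif was searched on both strands as TTTCCCGC, TTTGGCGC, TTTCGCGC or TTTGCCGC, none of which overlapped another by 6 or more letters. It is written in capitals, the rest in lower case, 5′ to 3′ on the strand of the gene.
Uhrf1, chr17:56304082-56304181, plus strand, motif from position -185: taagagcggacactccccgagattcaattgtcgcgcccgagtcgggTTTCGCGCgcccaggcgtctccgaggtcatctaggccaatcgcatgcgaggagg
Suz12, chr11:79992856-79992940, plus strand, motif from position -219: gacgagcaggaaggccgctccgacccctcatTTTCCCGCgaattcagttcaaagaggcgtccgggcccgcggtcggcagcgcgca
Ezh2, chr6:47595009-47595038, minus strand, motif from position 4 within the first exon: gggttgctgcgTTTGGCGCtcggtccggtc
Dnmt1, chr9:20952824-20952853, minus strand, motif from position -219 in its reverse complement: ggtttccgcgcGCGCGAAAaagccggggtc
The Dnmt1 window held another match from position 34, and this RefSeq start lies inside the GENCODE model of Dnmt1, so the printed bases overlap an annotated exon. The Uhrf1 start used here (56304313) also lies inside its GENCODE model, which begins at 56303321. The windows at the other RefSeq starts of Dnmt1 and Uhrf1 held no match. A match was present in 2.26% of all 32851 windows, in 5.28% of the 7249 filtered genes that had a window, and in 5 of the 13 S phase genes that had one (38.5%). The Dnmt3a, Dnmt3b, Eed and Tet windows held none of these letters, which says nothing about binding.

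Dnmt1 and Uhrf1, the maintenance pair, were low in most iHECs and present in nearly every iHPC. Dnmt1 (chr9:20907209-20959888, minus strand, GRCm38) ran from 0 to 152 TPM in iHECs with a median of 0, from 0 to 87.8 with a median of 45.2 at day 14, from 17.8 to 191 with a median of 95.8 at day 17, and from 0 to 150 with a median of 29.8 at day 21. It exceeded 1 TPM in 21 of the 65 iHECs (32.3%, 95% binomial interval by the exact method of Clopper and Pearson, 21.2 to 45.1), 20 of 21 day-14 cells, all 18 day-17 cells and 51 of 56 day-21 cells. Intervals here cover counting error only. The ranges of iHECs and iHPCs overlapped throughout, because some iHECs held as much Dnmt1 as most iHPCs.

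Uhrf1 (chr17:56303321-56323486, plus strand) had the highest median of the 4 DNA methylation genes in each iHPC group. Its TPM ran from 0 to 205 in iHECs with a median of 0.067, from 29.96 to 308.6 with a median of 124 at day 14, from 31.9 to 653 with a median of 324 at day 17, and from 0 to 503 with a median of 70.1 at day 21. It exceeded 1 TPM in 27 of the 65 iHECs (41.5%, 29.4 to 54.4), in every day-14 and day-17 cell, and in 53 of 56 day-21 cells. Day 17 was the highest group and iHECs the lowest, and the day-17 median exceeded the highest day-14 cell. Mean log2(TPM + 1) was 2.02 ± 2.73 (SD between cells, n = 65) in iHECs, 6.98 ± 0.77 (n = 21) at day 14, 8.04 ± 1.10 (n = 18) at day 17 and 5.80 ± 1.97 (n = 56) at day 21.

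**Figure D1:**
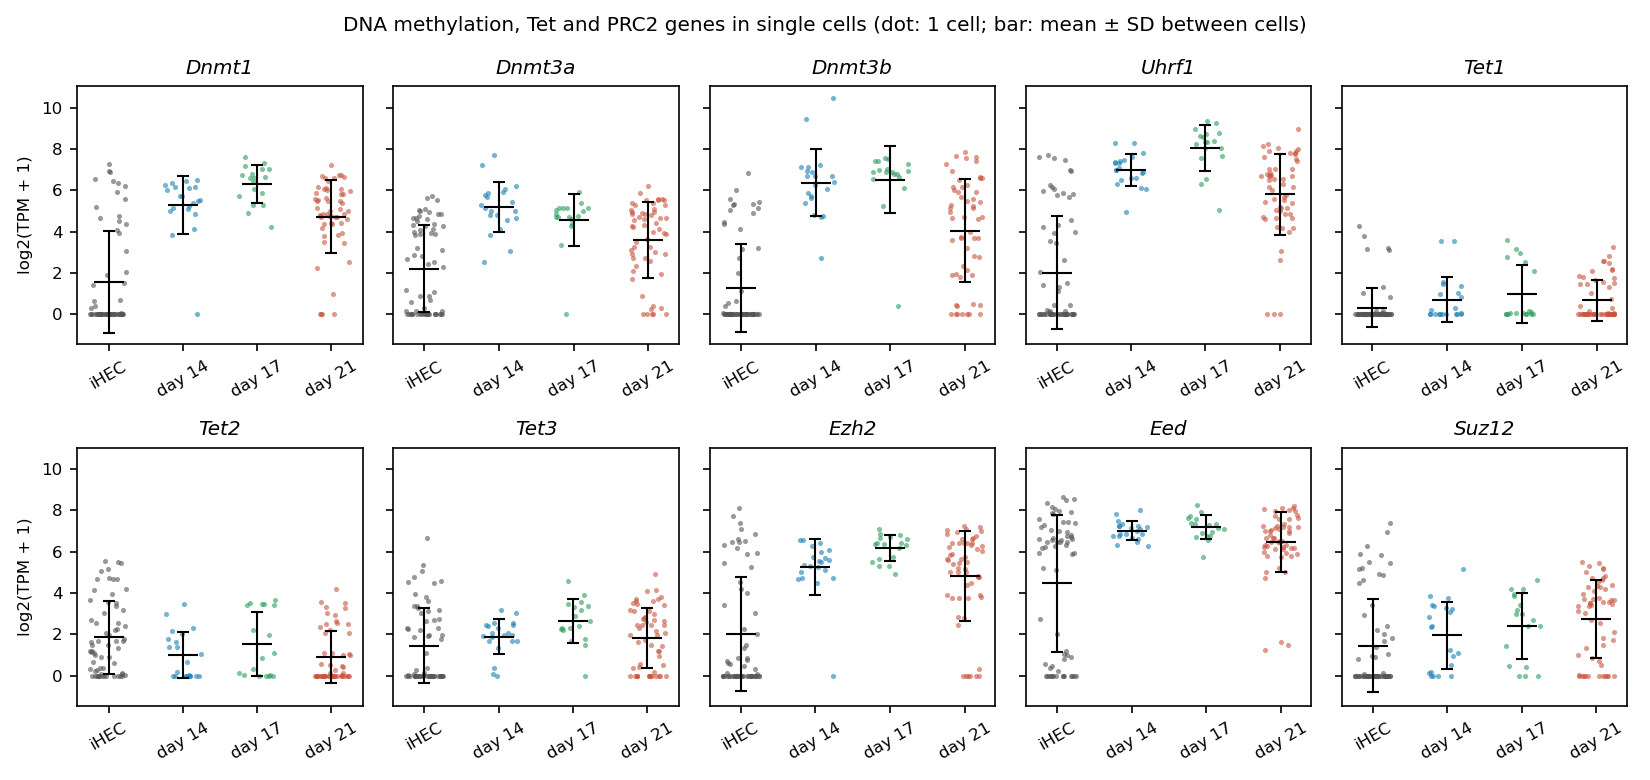
Level of each of the 10 genes as log2(TPM + 1), 1 dot per cell in 65 iHECs, 21 day-14, 18 day-17 and 56 day-21 cells, with the horizontal mark at the mean and the bars at 1 SD between cells. Dnmt1, Uhrf1, Dnmt3b and Ezh2 were at 0 in many iHECs and well above 0 in most iHPCs, whereas the Tet genes stayed low in all groups.

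From iHECs to day 14, 6 of the 10 genes were higher by more than 1 relative to the median, where 27.3% of all tested genes were, and 1 of 10 was lower, where 24.4% were. The 6 were Dnmt3b (relative difference 4.18), Uhrf1 (4.04), Dnmt1 (2.80), Ezh2 (2.35), Dnmt3a (2.05) and Eed (1.62), and the lower gene was Tet2 (-1.77). Without the 3 iHPCs low in blood markers, Dnmt3b stood at 3.79 and Dnmt3a at 1.80. Tet1 (-0.54), Tet3 (-0.49) and Suz12 (-0.43) stayed within 1 of the median gene. The median relative difference of the 10 genes was 1.83, against 0 over all genes by construction. From day 14 to day 17 none of the 10 was beyond 1, where 9.03% of tested genes were higher and 7.09% lower. Uhrf1 (0.78), Dnmt1 (0.72), Ezh2 (0.63) and, on the other side, Dnmt3a (-0.89, or -0.56 without the 3 iHPCs) came nearest. From day 17 to day 21, 2 of 10 were lower, namely Dnmt3b (-1.73) and Uhrf1 (-1.50), where 13.1% of tested genes were, and 1 of 10 was higher, Suz12 (1.08), where 10.3% were. The last 2 counts lie near the background.

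**Figure D2:**
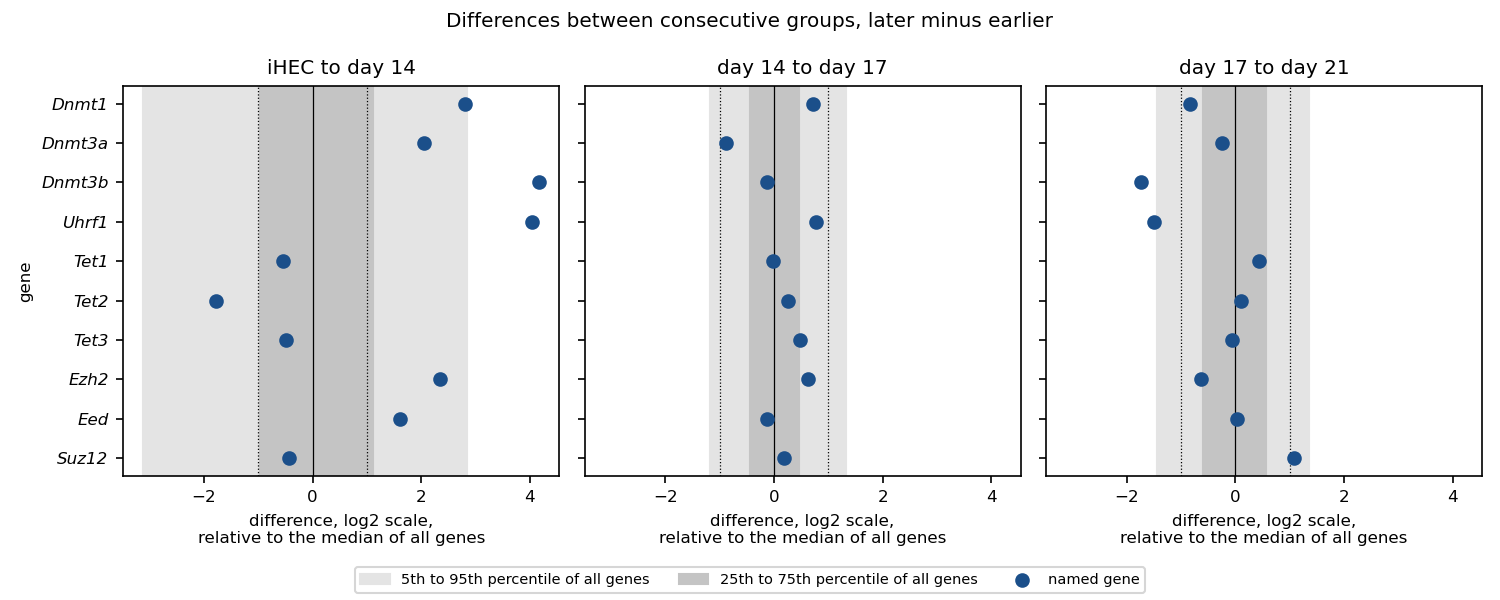
Difference in mean log2(TPM + 1), later minus earlier group, relative to the median of 9674 genes, for the 10 genes in 3 comparisons. Light and dark grey bands run from the 5th to the 95th and from the 25th to the 75th percentile of all genes, and dotted lines stand at -1 and 1. Dnmt3b (4.18) and Uhrf1 (4.04) lay beyond the 95th percentile of all genes from iHECs to day 14 and below the 5th from day 17 to day 21.

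Because iHEC libraries were less complex, the comparison was also made among cells with 5000 to 8000 genes detected, 31 iHECs and 8 day-14 cells. The same 6 genes were higher and Tet2 was lower there. The relative differences were 4.10 for Uhrf1, 3.75 for Dnmt3b, 2.70 for Dnmt1, 2.51 for Ezh2, 1.26 for Dnmt3a, 1.12 for Eed and -1.07 for Tet2. The shares of all tested genes called in this band are not given here, so these counts have no background of their own. Over all iHECs, the number of the 10 genes above 1 TPM in a cell followed the number of genes detected (Spearman rho = 0.69 over 65 cells, which are not replicates). A median of 4 of the 10 genes was detected per iHEC, with a range of 0 to 9, against 8 at day 14, 8.5 at day 17 and 8 at day 21. In the same complexity band, the share of iHECs above 1 TPM was 45.2% for Dnmt1, 74.2% for Dnmt3a, 67.7% for Tet3 and 83.9% for Eed, each above its share over all iHECs. The part that library complexity played in the levels was not otherwise tested.

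In the order of groups by mean level, few neighbouring groups stood further apart than the SD between cells. The gap was larger than the SD for 4 of the 10 genes, in each between iHECs at the bottom and day 21 next above, whereas 6.73% of all tested genes had such a gap above iHECs: Uhrf1 (gap 3.78 on the log2 scale, SD 2.73), Dnmt1 (3.16, 2.45), Ezh2 (2.82, 2.75) and Dnmt3b (2.79, 2.51). Day 17 was the highest group for Dnmt1, Dnmt3b, Uhrf1, Tet1, Tet3, Ezh2 and Eed, but its gap to day 14 was within the SD between cells for each of these 7 genes. Tet2 was highest in iHECs, Dnmt3a at day 14 and Suz12 at day 21, again by less than the SD.

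The balance of the de novo enzymes turned between iHECs and iHPCs. Dnmt3a (chr12:3806007-3914443, plus strand) ran from 0 to 52.6 TPM in iHECs with a median of 3.93, from 4.85 to 207 with a median of 34.6 at day 14, from 0 to 58.5 with a median of 26.96 at day 17, and from 0 to 73.5 with a median of 17.2 at day 21. Dnmt3b (chr2:153649450-153687730, plus strand) ran from 0 to 114 TPM in iHECs with a median of 0, from 5.52 to 1421 with a median of 83.5 at day 14, from 0.32 to 189 with a median of 118 at day 17, and from 0 to 234 with a median of 24.5 at day 21. Dnmt3a thus stood above 1 TPM in more iHECs than Dnmt3b did, 35 against 18 of 65, while every day-14 cell held both. The highest Dnmt3b values of day 14, 694 and 1421 TPM, belonged to the 2 cells low in blood markers, and the other 19 cells ran up to 150 TPM with a median of 75.9. The highest Dnmt3a values, 148 and 207 TPM, were in the same 2 cells, and the other 19 ran up to 72.4 TPM.

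Within single cells, log2(TPM + 1) of Dnmt3b minus that of Dnmt3a was -0.94 ± 2.70 (SD, n = 65 cells) in iHECs, 1.19 ± 1.08 (n = 21) at day 14, 1.95 ± 1.84 (n = 18) at day 17 and 0.47 ± 2.37 (n = 56) at day 21. The SDs in iHECs and at day 21 exceeded the means. Among cells with either gene above 1 TPM, Dnmt3b was the higher in 13 of 41 iHECs (31.7%, exact 95% interval 18.1 to 48.1), 17 of 21 day-14 cells (81.0%, 58.1 to 94.6), 17 of 18 day-17 cells (94.4%, 72.7 to 99.9) and 35 of 54 day-21 cells (64.8%, 50.6 to 77.3). The upper iHEC limit (48.1) lay just under the lower day-21 limit (50.6). These intervals count cells within 1 sample per group and do not measure the spread between cultures. Without the 3 iHPCs low in blood markers, the mean difference was 1.05 at day 14 and 1.83 at day 17, and Dnmt3b was the higher in 15 of 19 and 16 of 17 cells.

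In iHECs the difference lay in which gene was detected rather than in cells that held both. Of 65 iHECs, 12 had both genes above 1 TPM, 23 had Dnmt3a alone, 6 had Dnmt3b alone and 24 had neither. In the 12 with both, Dnmt3b minus Dnmt3a had a median of 0.52 on the log2 scale. The corresponding median was 1.47 in 21 day-14 cells, 2.22 in 16 day-17 cells and 1.17 in 38 day-21 cells, so in the median cell with both genes Dnmt3b was the higher in every group. At day 21, 9 cells held Dnmt3a alone, 7 held Dnmt3b alone and 2 held neither.

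As a share of the summed mean TPM of both genes, Dnmt3b made up 45.5% among iHECs, 77.7% at day 14, then 80.8% at day 17 and 70.2% by day 21. The day-14 share was 68.6% over the 19 cells left without the 2 low in blood markers. By the mean over the 4 groups of the within-group Spearman rho, Dnmt3a and Dnmt3b were the closest pair of the 10 genes (0.43). Their rho was 0.24 among iHECs, 0.70 at day 14, then 0.27 at day 17 and 0.51 by day 21. The day-14 and day-17 values were 0.60 and 0.38 without the 3 iHPCs. Other pairs were closer in iHECs (Dnmt1 with Ezh2, 0.34), at day 17 (Dnmt3b with Eed, 0.59) and at day 21 (Dnmt3a with Uhrf1, 0.61). The file gives 1 value per gene, so the catalytic and inactive isoforms of Dnmt3b, and the long and short forms of Dnmt3a, are not separated.

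**Figure D3:**
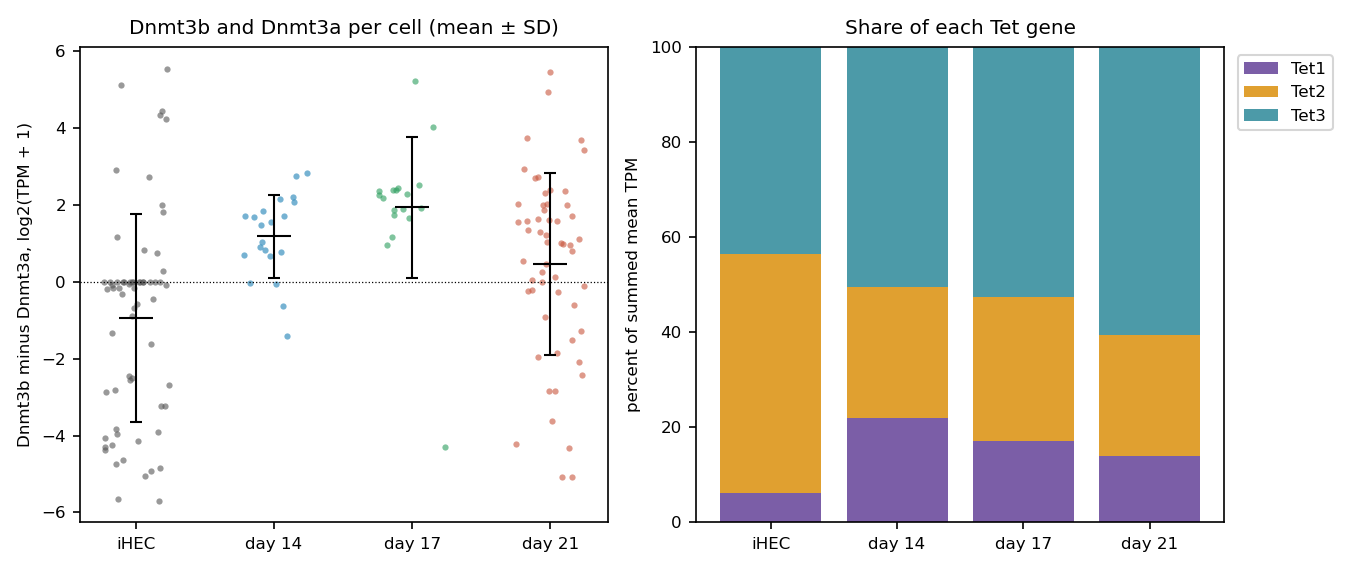
Left, log2(TPM + 1) of Dnmt3b minus that of Dnmt3a, 1 dot per cell by group, with mean and SD between cells (-0.94, 1.19, 1.95 and 0.47 from iHECs to day 21). Right, the share of Tet1, Tet2 and Tet3 in their summed mean TPM per group, in which Tet2 made up 50.2% in iHECs and Tet3 made up 60.5% at day 21.

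All 3 Tet genes were low, with group medians under 5 TPM. Tet2 (chr3:133463679-133545139, minus strand) ran from 0 to 46.7 TPM in iHECs with a median of 1.78, from 0 to 10.3 with a median of 0.59 at day 14, from 0 to 11.9 with a median of 0.99 at day 17, and from 0 to 17.5 with a median of 0.019 at day 21. Tet3 (chr6:83362373-83459084, minus strand) ran from 0 to 101 TPM with a median of 0.080 in iHECs, from 0 to 8.07 with a median of 2.90 at day 14, from 0 to 22.9 with a median of 4.85 at day 17, and from 0 to 29 with a median of 3.06 at day 21. Tet1 (chr10:62804570-62908996, minus strand) did not exceed 18.3 TPM in any cell and had a median of at most 0.039 TPM in each group. The ranges of all 3 genes overlapped between all groups.

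Over all cells, Tet2 was detected in more iHECs than Tet3, and Tet3 in more iHPCs of every day than Tet2. Tet2 exceeded 1 TPM in 39 of the 65 iHECs (60%, exact 95% interval 47.1 to 72.0), 10 of 21 day-14 cells (47.6%, 25.7 to 70.2), 9 of 18 day-17 cells (50%, 26.02 to 73.98) and 19 of 56 day-21 cells (33.9%, 21.8 to 47.8). Tet3 exceeded 1 TPM in 29 of the 65 iHECs (44.6%, 32.3 to 57.5), 18 of 21 day-14 cells (85.7%, 63.7 to 97.0), 17 of 18 day-17 cells (94.4%, 72.7 to 99.9) and 36 of 56 day-21 cells (64.3%, 50.4 to 76.6). For Tet2 the neighbouring intervals overlapped, and among cells with 5000 to 8000 genes detected the shares in iHECs and at day 14 were 64.5% and 75%, the other way round from the shares over all cells. For Tet3 the share among iHECs in that band was 67.7%, nearer to the day-14 share than the 44.6% over all iHECs. It lay above the 64.5% of Tet2, so the lead of Tet2 among iHECs was not seen in the band. Tet3 stayed ahead there in the iHPCs of every day.

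In the summed mean TPM of the 3 genes, Tet2 held 50.2% among iHECs, 27.6% at day 14, then 30.3% at day 17 and 25.6% by day 21. Tet3 held 43.6%, 50.5%, 52.6% and 60.5% in the same order, and Tet1 held 6.25%, 21.9%, 17.1% and 13.9%. The day-14 share of Tet1 rested on the 2 cells low in blood markers, since it was 7.59% without them, with 33.5% for Tet2 and 58.9% for Tet3. The sum itself was 14.3 TPM among iHECs, 6.48 at day 14, then 12.98 at day 17 and 7.79 by day 21. Cell by cell, Tet2 was the highest of the 3 in 25 of 51 iHECs with any Tet gene above 1 TPM and Tet3 in 23, whereas Tet3 was the highest in 14 of 20 day-14 cells, 8 of 17 day-17 cells and 30 of 47 day-21 cells. Few cells held all 3 genes above 1 TPM, namely 3 of 65 iHECs, 2 of 21 day-14 cells, 2 of 18 day-17 cells and 6 of 56 day-21 cells. At these levels a value of 0 in a cell may be a transcript that was not captured. Tbp, a gene in general use, was itself at 0 in 28 of the 160 cells.

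The 3 PRC2 core genes stood at unequal levels. Eed was above 1 TPM in most cells of every group, Ezh2 and Suz12 in most iHPCs but in a minority of iHECs. Eed (chr7:89954654-89980983, minus strand) was the highest of the 3 in every group, from 0 to 407 TPM in iHECs with a median of 76.1, from 77.6 to 256 with a median of 128 at day 14, from 52.5 to 306 with a median of 147 at day 17, and from 1.41 to 295 with a median of 99.8 at day 21. It exceeded 1 TPM in 44 of the 65 iHECs and in all 95 iHPCs. Ezh2 (chr6:47530139-47595341, minus strand) ran from 0 to 274 TPM with a median of 0.099 in iHECs, from 0 to 93.9 with a median of 44.4 at day 14, from 29.6 to 134 with a median of 81.3 at day 17, and from 0 to 151 with a median of 43.8 at day 21. It exceeded 1 TPM in 24 of the 65 iHECs (36.9%, exact 95% interval 25.3 to 49.8), 20 of 21 day-14 cells, all 18 day-17 cells and 49 of 56 day-21 cells.

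Suz12 (chr11:79993106-80034123, plus strand) took another course. It ran from 0 to 166 TPM with a median of 0 in iHECs, from 0 to 34.5 with a median of 4.16 at day 14, from 0 to 23.8 with a median of 6.18 at day 17, and from 0 to 45.1 with a median of 9.89 at day 21. Its mean log2(TPM + 1) was 1.45 ± 2.25, 1.95 ± 1.63, 2.41 ± 1.61 and 2.75 ± 1.88 in the same order, so the steps were smaller than the SD between cells. The relative rise of 1.08 from day 17 to day 21 came from a difference of 0.35 in the levels themselves, while the median gene fell by 0.74, and it was 0.78 among cells with 5000 to 8000 genes detected.

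In the summed mean TPM of the core, Suz12 made up 9.08% among iHECs, 3.11% at day 14, then 3.13% at day 17 and 6.41% by day 21, Ezh2 19.9%, 25.2%, 32.4% and 28.6%, and Eed the rest. All 3 genes were above 1 TPM in 7 of the 65 iHECs, in 12 of 21 day-14 cells, 13 of 18 day-17 cells and 36 of 56 day-21 cells, and none of the 3 was in 12 iHECs. Exons of E230029C05Rik overlap Eed on the opposite strand, and annotated antisense genes likewise overlap Dnmt3a, Tet2, Ezh2 and Suz12. Whether counting used strand is not given in the sources used here, so reads of such pairs may not have been told apart.

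Ezh1, which encodes the alternative catalytic subunit, did not share the course of Ezh2. It exceeded 1 TPM in 20 of the 65 iHECs, in 11 of 21 day-14 cells, 8 of 18 day-17 cells and 17 of 56 day-21 cells. Within cells, log2(TPM + 1) of Ezh2 minus that of Ezh1 was 0.42 ± 3.43 (SD, n = 65) in iHECs, 3.89 ± 1.74 (n = 21) at day 14, 4.67 ± 1.84 (n = 18) at day 17 and 3.75 ± 2.60 (n = 56) at day 21. The 3 iHPC means lay above their SDs, and the iHEC mean did not.

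The genes of DNA replication moved with several of the 10. Of 15 S phase genes, 14 were higher by more than 1 from iHECs to day 14, where 27.3% of all tested genes were. Among the 14 were Rrm2 (6.54), Mcm5 (5.31) and Mcm7 (5.13), and the list median was 3.77. Of 15 G2/M genes, 12 were higher and the list median was 2.66. From day 17 to day 21, 4 of the 15 S phase genes were lower, where 13.1% of tested genes were. Mcm2 (-1.25), Cdc6 (-1.23) and Mcm5 (-1.19) were foremost. The mean log2(TPM + 1) over the S phase list ran from 0.75 to 8.32 in iHECs with a median of 2.63, from 6.86 to 8.37 with a median of 7.62 at day 14, from 7.52 to 8.98 with a median of 8.26 at day 17, and from 2.62 to 8.68 with a median of 7.16 at day 21.

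Within groups, Uhrf1 followed the S phase list most closely, with Spearman rho of 0.42 over 65 iHECs, 0.63 over 21 day-14 cells, 0.55 over 18 day-17 cells and 0.73 over 56 day-21 cells. Dnmt1 had 0.41, 0.05, 0.31 and 0.66, Ezh2 0.31, 0.40, 0.35 and 0.34, Dnmt3b 0.27, 0.33, 0.17 and 0.57, and Dnmt3a 0.31, 0.36, 0.34 and 0.49. Tet2 had -0.02, -0.03, -0.59 and -0.08, and Suz12 0.16, -0.03, -0.39 and -0.33. The cells of a group share their sorting gate and are not replicates, and whether they shared a library preparation is not given. In iHECs and at day 21 the S phase list also followed the number of genes detected (rho 0.60 and 0.39). These coefficients are descriptions.

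Only 5 of 65 iHECs reached the S phase level of the lowest day-14 cell, a split made after the values were seen. All 5 were above 1 TPM for Dnmt1 (46.8 to 121 TPM), Uhrf1 (75.8 to 194), Ezh2 (37.97 to 209) and Eed (58.5 to 291). In contrast, Dnmt3b was above 1 TPM in 1 of these 5 cells (20%, exact 95% interval 0.51 to 71.6), where it stood at 8.07 TPM, and in 17 of the other 60 iHECs. Dnmt1, Uhrf1 and Ezh2 were above 1 TPM in 16, 22 and 19 of those 60. The 5 cells had 5728 to 7533 genes detected, against a median of 4850.5 in the other 60, and the part of complexity in this contrast was not tested. Of these 5 cells, 2 were among the 3 iHECs high in blood markers.

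**Figure D4:**
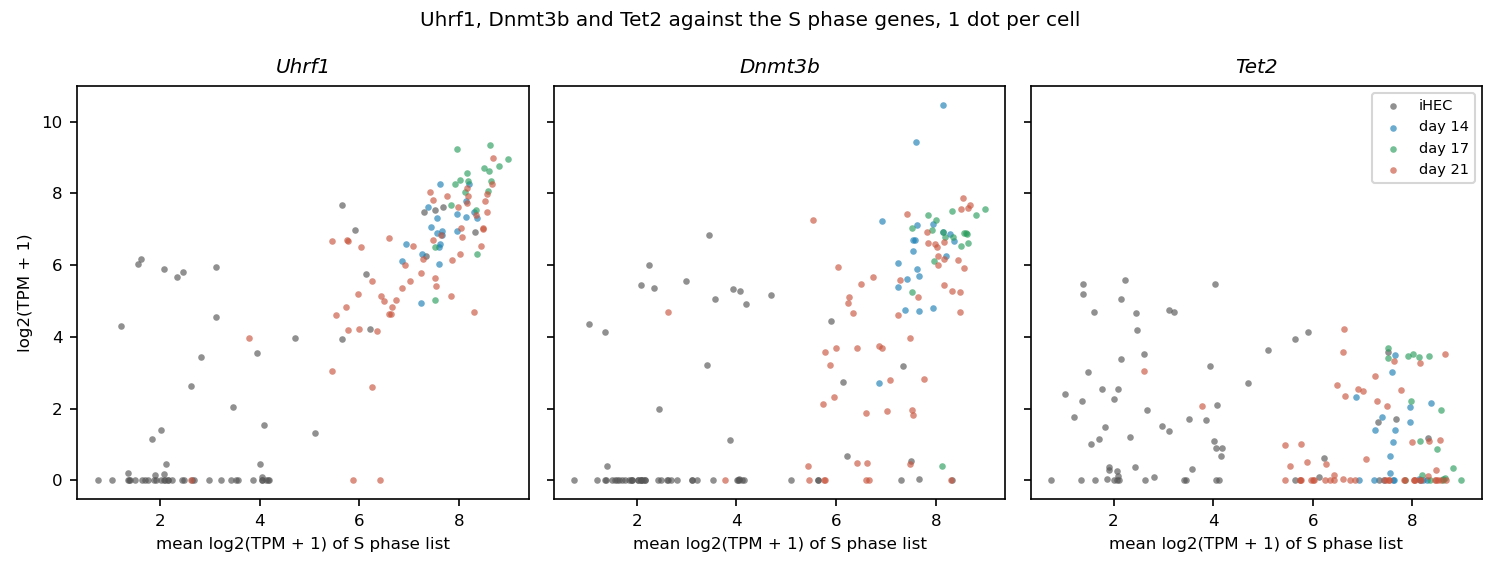
Level of Uhrf1, Dnmt3b and Tet2 in each cell, as log2(TPM + 1), against the mean log2(TPM + 1) of 15 S phase genes, with 1 dot per cell coloured by group. Uhrf1 tended to be higher at a higher S phase level (rho 0.42 to 0.73 within groups), with single cells off this course, whereas Dnmt3b was above 1 TPM in 1 of the 5 iHECs that reached the day-14 range and Tet2 showed no such course.

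The genes most alike to each of the 10, by the mean over the 4 groups of the within-group Spearman rho, also differed in kind. For Uhrf1 they were the replicative helicase genes Mcm4 (mean rho 0.58), Mcm2 (0.57) and Mcm5 (0.55). For Dnmt1 they were Rrm1 (0.53), a ribonucleotide reductase subunit gene, the Cdk1 inhibitory kinase gene Pkmyt1 (0.53) and Cmas (0.51), and for Ezh2 they included the nucleotide synthesis gene Tyms (0.40) and Tube1 (0.40). Dnmt3a was most like Mcm6 (0.52), Mcm2 (0.48) and Hes6 (0.47), and Dnmt3b most like Trim28 (0.52), which encodes a heterochromatin corepressor, Fkbp4 (0.52) and Ywhaq (0.50).

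The remaining genes had weaker or more scattered likenesses. Tet3 was most like Tln1 (0.49), Inpp5d (0.48) and Akt1 (0.46), Tet2 like B3galt4 (0.40), Csf2rb2 (0.37) and Ifnar2 (0.37), and Tet1 like Rasal2 (0.40), Tcf7l1 (0.37) and Zbtb49 (0.36). For Eed they were Ankrd27 (0.40), Srrm2 (0.38) and Hnrnpu (0.38), and for Suz12 they were Grap (0.41), Ssh2 (0.39) and Mfsd6 (0.38). Each of these was the highest of 9674 genes less the 10, so such sizes are the extreme of many.

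Few partners of the maintenance and de novo enzymes were beyond 1. Of 11 tested DNA methylation partners and readers, 2 were higher and 2 lower from iHECs to day 14, against the 27.3% and 24.4% of all genes, with a list median of -0.38. Hells (3.31), a remodelling ATPase needed for normal DNA methylation, rose from a mean log2(TPM + 1) of 1.65 to 5.89. Mbd3 (2.37), of the NuRD complex, rose from 4.32 to 7.62. The methyl-CG reader Mbd2 (-1.04) was among the lower, but its own level went from 2.69 to 2.58 while the median gene rose by 0.93. Mbd1 was higher from day 14 to day 17 (1.35), the sole gene of the list beyond 1 there. In that comparison 9.03% of tested genes were higher and 7.09% lower. From day 17 to day 21, Uhrf2 (-1.65), the relative of Uhrf1, and Hells (-1.09) were lower, where 13.1% of tested genes were. None of the 11 was higher, where 10.3% were.

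Dnmt3l and Dppa3, germline and early embryo genes that did not pass the filter and are named after their values were seen, were above 1 TPM in 3 and 2 of 21 day-14 cells and in 1 and 7 of 18 day-17 cells. The 2 day-14 cells low in blood markers held both genes, and without the 3 iHPCs the counts were 1 and 0 of 19 day-14 cells and 1 and 6 of 17 day-17 cells. Neither was above 1 TPM in any of 65 iHECs (0 cells, which by 3 cells of the total allows a share of up to 4.62%), or in any of 56 day-21 cells (up to 5.36%). These limits are on cells with a value above 1 TPM, not on cells that express the gene. DNMT3L is a catalytically inactive partner of DNMT3A and DNMT3B.

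Genes of DNA demethylation and repair moved in both directions. Of 11 tested genes of DNA demethylation and repair, 5 were higher and 4 lower from iHECs to day 14. Of all tested genes 27.3% were higher and 24.4% lower there, and the list median was -0.10. The uracil glycosylase gene Ung (4.49) and the single-strand break repair genes Xrcc1 (2.88) and Parp1 (2.55) were higher. Gadd45g (-5.65), a stress-response gene, fell from a mean log2(TPM + 1) of 6.06 to 1.34, Idh1 (-2.67), whose product makes the 2-oxoglutarate that TET enzymes use, from 7.42 to 5.67, and Ogt (-2.06), whose product binds TET proteins, from 5.55 to 4.42. Idh2 (1.09), the mitochondrial relative of Idh1 that makes the same product, was among the higher and rose from 7.19 to 9.21. It falls outside the naming rule and is given after its values were seen. None of the 11 was beyond 1 from day 14 to day 17, where 9.03% of tested genes were higher and 7.09% lower. From day 17 to day 21, Ung (-2.08), Parp1 (-1.58) and Xrcc1 (-1.27) were lower, where 13.1% of tested genes were. Gadd45g (1.54) was higher, where 10.3% were.

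The list of PRC2 accessory subunits here also held Ezh1, Rbbp4 and Rbbp7. Of 6 tested genes, none was called higher in any of the 3 comparisons, where 27.3%, 9.03% and 10.3% of all tested genes were. Rbbp4 still rose from a mean log2(TPM + 1) of 4.85 to 6.72 from iHECs to day 14, within 1 of the median gene. The Polycomb-like gene Mtf2 (-1.15) and Ezh1 (-1.13) were called lower there, where 24.4% of tested genes were. Their own levels went from 5.42 to 5.19 and from 1.59 to 1.38, while the median gene rose by 0.93. Of the H3K27 demethylase genes, which oppose PRC2, Kdm6b (-2.82) fell from a mean log2(TPM + 1) of 5.21, with all 65 iHECs above 1 TPM, to 3.32 at day 14, and Kdm6a stayed within 1 of the median in all 3 comparisons. Neither was beyond 1 after day 14.

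PRC1, the complex that ubiquitylates histone H2A and in some of its forms binds the mark PRC2 makes, had 18 tested subunit genes. From iHECs to day 14, 5 of 18 were higher and 3 lower, near or under the background of 27.3% and 24.4%, with Pcgf6 (2.25), Pcgf1 (1.57) and Ring1 (1.31) the foremost of the higher and Yaf2 (-2.19), Rybp (-1.85) and Pcgf2 (-1.64) the lower. From day 14 to day 17, 4 of 18 were higher and none lower, where 9.03% and 7.09% of tested genes were. The chromobox gene Cbx2 (2.45) and Kdm2b (1.12) were among the higher. From day 17 to day 21, 3 of 18 were lower, where 13.1% of tested genes were, namely Kdm2b (-2.08), Cbx2 (-1.87) and Pcgf5 (-1.46). Cbx2 exceeded 1 TPM in 2 of the 65 iHECs, in 8 of 21 day-14 cells, 16 of 18 day-17 cells and 20 of 56 day-21 cells. It peaked at day 17, as Uhrf1 did.

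At day 21 the cells fell on either side of 1 TPM of Gata2, a transcription factor gene of stem, mast and basophil cells: 34 cells were above it and 22 were not. Ezh2 was the sole gene of the 10 that differed by more than 1, where 6.06% of tested genes were lower and 8.78% higher in the cells with Gata2. In the cells with Gata2 it ran from 0 to 145 TPM with a median of 35.6, and in the cells without from 0 to 151 with a median of 54.9, and its mean log2(TPM + 1) was 4.41 ± 2.42 (SD, n = 34) and 5.46 ± 1.54 (n = 22), a relative difference of -1.11. The SD between cells exceeded that difference.

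The level of Gata2 is graded, and 12 of the 34 cells lay between 1 and 10 TPM. With the limit at 10 TPM, chosen after the values were seen, 22 cells stood against the same 22 without Gata2, and 3 of the 10 genes were lower by more than 1, where 10.4% of tested genes were, with none higher, where 13.8% were. They were Dnmt3b (-1.76), Ezh2 (-1.57) and Uhrf1 (-1.33). Mean log2(TPM + 1) of Dnmt3b was 2.70 ± 1.99 (SD, n = 22) above 10 TPM of Gata2, 5.83 ± 1.93 (n = 12) between 1 and 10 TPM and 4.43 ± 2.58 (n = 22) in the cells without. Dnmt3b minus Dnmt3a was -0.26 ± 2.27, 1.49 ± 1.52 and 0.64 ± 2.67 in the same order, so the cells between the limits did not lie between the other two classes. The S phase level was 6.34 ± 1.20, 7.77 ± 1.06 and 7.32 ± 1.06, and its part in these values was not tested.

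Tet2 and Tet3 were detected in a larger share of the cells with Gata2, while their levels differed by less than 1. Tet2 was above 1 TPM in 15 of 34 cells with Gata2 (44.1%, exact 95% interval 27.2 to 62.1) and in 4 of 22 without (18.2%, 5.19 to 40.3), and Tet3 in 25 of 34 (73.5%, 55.6 to 87.1) and in 11 of 22 (50%, 28.2 to 71.8), so the intervals overlapped for both genes. Above 10 TPM of Gata2 the shares were 36.4% for Tet2 and 81.8% for Tet3. Dnmt1 differed by 0.05 in mean log2(TPM + 1), and Dnmt3b minus Dnmt3a was 0.36 ± 2.19 with Gata2 and 0.64 ± 2.67 without. The mast cell protease gene Mcpt4 had a median of 7856 TPM in the cells with Gata2 and 9.87 TPM in those without. The cells with Gata2 also had more genes detected (median 6934.5 against 6455) and a lower S phase level (6.84 ± 1.33 against 7.32 ± 1.06), and the part of either in these values was not tested. An alternative added after the values were seen left the Gata2 cells out. The day-21 differences from day 17 were then -1.30 for Dnmt3b, -1.13 for Uhrf1 and 1.28 for Suz12, so the same 3 genes were beyond 1. The share of all genes beyond 1 in that comparison is not given here.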

How the data were processed

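Single cells were sorted, amplified (Discover-sc WTA Kit V2) and made into sequencing libraries (TruePrep kit, V2), per the labels and the study's methods. The authors aligned reads to mm10 and deposited TPM values, 1 column per cell. The submitters' processing notes name HISAT2 2.1.0, SAMtools 0.1.19, StringTie 1.3.4 and bcl2fastq. Molecular identifiers and strand use are not given in the sources used here. TPM is scaled per cell and per length, keeps no depth, and dilutes each gene when others rise.

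Here, values were transformed as log2(TPM + 1), with Python 3.11.15, NumPy 2.4.6, pandas 2.3.3 and SciPy 1.17.1. Genes above 1 TPM in more than 30 cells were kept (9674 of 23420 rows). The script was tested on simulated data. Groups were taken from the titles. All 160 cells were used, with no filter on cells and no search for doublets. The genes, their lists and the naming rules were chosen with earlier results of these data known. List genes were named where beyond 1 in the relative difference, at most 3 per list, direction and comparison, and for each of the 10 genes the 3 most alike. A few genes that these rules name are not reported here. Beside the lists in the text, 5 of 9 mast cell or basophil, 5 of 7 T lymphoid and 2 of 9 neutrophil or monocyte markers passed the gene filter. Of these, 5 mast cell or basophil markers were higher at day 21, 4 T lymphoid markers at day 17 and 1 neutrophil or monocyte marker at day 14. Mcpt1, Mcpt4 and Cma1 were at 0 in every cell before day 21 and passed through day 21 alone, so the filter fixed their outcome there. Mpo and Csf1r, which did not pass, were above 1 TPM in 17 and 19 of 21 day-14 cells. Promoter windows are from RefSeq (GRCm38.p6) and gene positions from GENCODE (GRCm38).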

Additional observations from a re-analysis of the deposited data

How the results depend on the processing

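Of 982 recomputed values, 901 stayed within the spread or count limit. The sign changed in 54, 26 of them medians of gene lists and 28 differences of the 10 genes, and none of these was beyond 1 (the largest was the -0.89 of Dnmt3a from day 14 to day 17, which went to 0.08 among cells with 5000 to 8000 genes). With no gene filter, 17 of the 54 changed, among them the median of the PRC2 accessory subunits from iHECs to day 14 (-0.77 to 0.16). Median-of-ratios size factors moved 0 of 65 and leaving out the day-21 cells with Gata2 moved 0 of 24. Leaving out the 3 iHPCs low in blood markers or the 3 iHECs high in them moved 0 of 141 each within these limits, although the day-14 share of Tet1 went from 21.9% to 7.59% without the iHPCs. From iHECs to day 14, the count of the 10 genes lower went from 1 to 0 with a pseudocount of 10 and with no gene filter, where the difference of the median gene is 0. From day 14 to day 17, the count higher went from 0 to 1 with no gene filter and the count lower from 0 to 1 with a pseudocount of 0.1. From day 17 to day 21, the count higher went from 1 to 0 with a pseudocount of 10 and with no gene filter. It did the same with cells of 5000 to 8000 genes. The count lower went from 2 to 4 with no gene filter. The shares of all genes called under these settings are not given here. Ezh2 minus Ezh1 went to 2.05 at day 14 and 2.61 at day 17 with a pseudocount of 10, which compresses low values by construction. The mean rho of Dnmt1, Uhrf1 and Ezh2 with the S phase list went from 0.36 to 0.25 at day 14 and from 0.58 to 0.47 at day 21 once the trend over genes detected was removed. The causes of the other shifts were not tested. Shares of cells moved most with a detection limit of 10 TPM (28 of 60), chiefly for the Tet genes and Suz12, and with the limit at 0 TPM (11 of 60). No paired analysis was possible because no label ties cells of different groups to a shared culture and no value comes from a test. Read depth is unknown, each group is 1 sample, and cells of low complexity limit what a 0 means.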
